A study of Mus with 2 samples.

Results

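The genes described here are 10 genes of cytotoxic granules and contact killing, namely the granzyme genes Gzma, Gzmb, Gzmc, Gzmd, Gzme, Gzmf and Gzmk, the pore-forming perforin gene Prf1, the granule membrane gene Nkg7 and the death ligand gene Fasl. They were chosen by name as a functional group, and all 10 were found among the 32285 features of the count matrices. Their unique molecular identifiers (UMIs, each standing for 1 captured RNA molecule) were followed over 2 sections of CT26 tumors, a colon carcinoma line grown under the skin of balb/c mice aged 6 to 8 weeks. From 200000 injected cells, the control tumor grew under vehicle (PBS), and the rIL7 mouse received 10 µg recombinant mouse IL-7 into the peritoneum on day 11 and on day 13 after transplantation. Both tumors were taken on day 15. Each group was 1 section, so no test between groups was possible and differences between mice, sections and libraries cannot be told apart from an effect of treatment. Visium spots are small areas that can hold several cells, and fewer cells of a type cannot be told apart from less RNA per cell.

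Cytotoxic T cells and NK cells kill by releasing granules onto a bound target cell. Perforin opens the target membrane, and granzymes, which are serine proteases held in the granule on the proteoglycan serglycin, enter and cleave proteins inside. Nkg7 is a granule membrane protein that takes part in degranulation, and Fas ligand on the killer surface triggers death through the receptor Fas without granules. Granzyme B cleaves after aspartate and activates caspases, whereas granzymes A and K cleave after basic residues. In mice, granzymes C to G form a family next to granzyme B and are known from strongly stimulated lymphocytes.

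The members lie at 5 places in the genome (RefSeq, GRCm38, the build of the counts). Gzma at chr13:113093824-113100981 and Gzmk at chr13:113171630-113180965 lie close to each other. Gzme (chr14:56117619-56120625), Gzmd (chr14:56129556-56132603), Gzmf (chr14:56205263-56211407), Gzmc (chr14:56231397-56241647) and Gzmb (chr14:56258836-56262334) share 1 locus, which with the other genes Gzmg and Gzmn spans 145 kb. Prf1 is at chr10:61297751-61304684, Nkg7 at chr7:43437138-43438246 and Fasl at chr1:161780691-161788495. Gzmc to Gzmg are close paralogs, so reads that fit several of them may have been dropped or placed on the wrong copy, and the split of UMIs within this family is uncertain.

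The control section had 2219 kept spots with 22951678 UMIs and the rIL7 section 1950 kept spots with 25729233 UMIs, at a median of 9623 and 12922 UMIs per spot. Levels are therefore given as UMIs per 1000000 UMIs (CPM). Intervals are 95% intervals for counting error alone. They leave out variation between spots and between animals. The range over 4 quadrants of each section is therefore shown for the members and stated for some other genes, although quadrants are not replicates. Both sections carried the markers of the lineages that make these genes, at higher levels in the rIL7 section. Cd8a, a chain of the CD8 co-receptor, had 161 control and 528 rIL7 UMIs. The NK cell receptor gene Ncr1 had 180 and 510, and among the 6 NK cell markers only Klra8 was near absent, with 0 and 1 UMI.

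The whole group was more abundant in the rIL7 section. Its 10 genes together had 5130 UMIs for control (224 CPM, interval 217 to 230) and 10442 for rIL7 (406 CPM, 398 to 414), a ratio of 1.82 (1.76 to 1.88). In the control section 69.8% of spots held at least 1 UMI of the group, and in the rIL7 section 94.3%. After each spot was thinned to 5900 UMIs, which left out 217 control and 81 rIL7 spots, the shares were 57.8% and 81.1% in 1 random draw. Over that draw and 20 more they ranged from 54.6% to 57.8% and from 80.2% to 82.8%. All 10 members had the 20 UMIs required over both sections. For 9 of them, Gzmf being the exception, the rIL7 level was at least 1.5 times the control level with the interval above 1, a rule met by 6.12% of 14313 genes. None was lower by the same rule, which 4.24% of genes met. The median log2 ratio of the members was 0.97, against 0.00 over all genes. In 7 members every rIL7 quadrant was above every control quadrant, as in 9.74% of genes. The exceptions were Gzmd, Gzme and Gzmf.

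**Figure D1:**
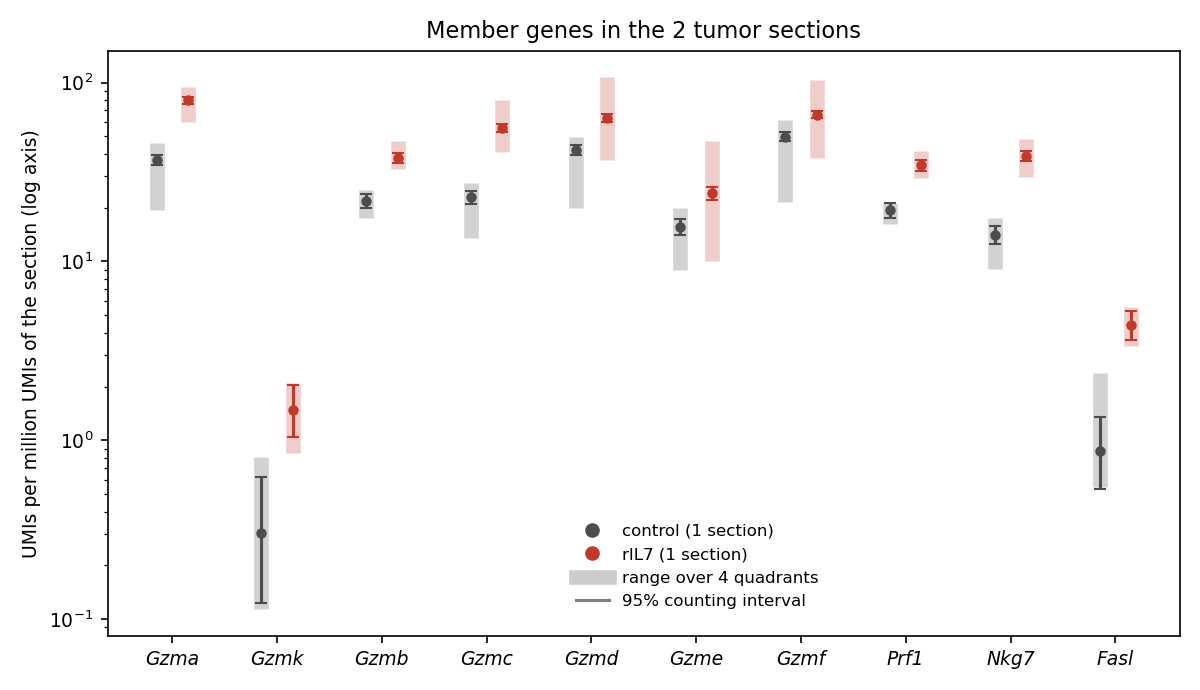
Level of each member in UMIs per 1000000 UMIs of the section, on a log axis, for the control section (grey) and the rIL7 section (red). Points are section values, thin bars are 95% counting intervals and broad bars the range over 4 quadrants; the quadrant ranges overlap between sections for Gzmd, Gzme and Gzmf and stand apart for the other 7 members.

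Among the tryptase-type granzymes, Gzma was the most abundant member of the rIL7 section. It had 848 UMIs for control (36.9 CPM, quadrants 19.4 to 46) and 2045 for rIL7 (79.5 CPM, quadrants 60.4 to 93.9), a ratio of 2.15 (1.98 to 2.33). A Gzma UMI was present in 27.5% of control spots and 57.4% of rIL7 spots. Its neighbour Gzmk was rare, with 7 and 38 UMIs and never more than 1 in a spot, and its ratio of 4.84 had an interval of 2.14 to 12.9.

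Gzmb, the gene of the aspartate-cleaving granzyme, had 498 UMIs for control (21.7 CPM, quadrants 17.6 to 25.1) and 974 for rIL7 (37.9 CPM, quadrants 33 to 47.4). Its ratio was 1.74 (1.56 to 1.95). Prf1 was close to it on every count, with 443 UMIs (19.3 CPM) against 884 (34.4 CPM) and a ratio of 1.78 (1.59 to 2). The 2 genes thus kept the same proportion to each other in both sections within counting error.

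The Gzmb neighbours Gzmc to Gzmf did not share 1 ratio. Gzmc had 525 control UMIs (22.9 CPM, quadrants 13.5 to 27.3) and 1438 rIL7 UMIs (55.9 CPM, quadrants 41.1 to 79.6), a ratio of 2.44 (2.21 to 2.71). Gzmd had 966 and 1630 (42.1 and 63.4 CPM), a ratio of 1.51 (1.39 to 1.63) that rests on the 1.5-fold limit. Gzme had 358 and 619 (15.6 and 24.1 CPM), a ratio of 1.54 (1.35 to 1.76). Gzmf, the most abundant member of the control section, had 1142 and 1700 (49.8 and 66.1 CPM), and its ratio of 1.33 (1.23 to 1.43) was the lowest of the 10. The next gene of the locus, Gzmg, which is no member, had 1049 and 1336 UMIs and a ratio of 1.14 (1.05 to 1.23). The counting intervals of Gzmc and of the pair Gzmd and Gzmf do not overlap, but a share of the reads of each may belong to another.

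Nkg7 and Fasl had larger ratios. Nkg7 had 323 UMIs for control (14.1 CPM, quadrants 9.13 to 17.5) and 1000 for rIL7 (38.9 CPM, quadrants 29.7 to 48.3), a ratio of 2.76 (2.43 to 3.14). Fasl had 20 UMIs in as many control spots (0.871 CPM, quadrants 0.548 to 2.38) and 114 UMIs in the rIL7 section (4.43 CPM, quadrants 3.39 to 5.56), a ratio of 5.08 (3.14 to 8.64). Its receptor gene Fas was more abundant than the ligand in both sections, at 30.4 and 44.1 CPM, a ratio of 1.45 (1.32 to 1.6).

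Because the assay tags each molecule once near its 3′ end, UMIs do not scale with transcript length, and CPM can be set side by side across genes. The places of Gzmc to Gzmf are uncertain all the same, since their reads may have been dropped or placed on another copy. In the control section the order from the top was Gzmf, Gzmd, Gzma, Gzmc, Gzmb, Prf1, Gzme, Nkg7, Fasl and Gzmk. In the rIL7 section it was Gzma, Gzmf, Gzmd, Gzmc, Nkg7, Gzmb, Prf1, Gzme, Fasl and Gzmk. The counting intervals of Gzmf and Gzmd overlap in the rIL7 section, as do those of Nkg7 and Gzmb, and quadrant ranges overlap between most neighbours. Nkg7 thus stood 3 places higher in the rIL7 order than in the control order.

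The next comparison set the rim, the outermost 2 rings of spots, against the interior of the largest connected piece of tissue. The rim held 401 of 2207 spots in the control and 330 of 1929 in the rIL7 section. In the rIL7 section the members split into 3 patterns. Nkg7 was higher at the rim, Gzmc to Gzmf were lower there, and Gzma, Gzmb and Prf1 differed little. By the 1.5-fold rule 1 member was higher at the rim, where 10.0% of 13324 genes were, and 4 were lower, where 5.84% of genes were. In the control section 0 of 9 members with enough UMIs were higher, where 1.71% of 13168 genes were, and 2, Gzme and Gzmf, were lower, where 2.56% of genes were. With each spot weighted equally the log2 value of Gzme turned from -0.61 to 0.18, and that of Gzmf went from -0.72 to -0.37.

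Nkg7 was at 73.7 CPM in the rIL7 rim and 32.5 in the rIL7 interior, a ratio of 2.26 (1.97 to 2.6). For the control section it was at 15.7 and 13.5 CPM, a ratio of 1.16 (0.874 to 1.51). Nkg7 was 4.7 times its control level within the rim (3.61 to 6.2) and 2.4 times within the interior (2.08 to 2.79). Cd8a gave nearly the same figures in the rIL7 section, at 39 CPM in the rim and 17.1 in the interior, a ratio of 2.28 (1.88 to 2.76). Set against each other, the rim-to-interior ratios of Cd8a and Nkg7 differed by a factor of 1.01 (0.792 to 1.28). The T cell receptor gene Trac was more rim-bound still, at 76.7 against 18.9 CPM. The NK cell gene Ncr1 was at 24.7 against 19 CPM, a ratio of 1.3 (1.03 to 1.62), and Klrd1, which NK cells and some T cells carry, at 60.1 against 30.3 CPM.

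Gzma in the rIL7 section was level between rim and interior, at 78.7 and 79.6 CPM, a ratio of 0.989 (0.874 to 1.12). Prf1 was at 36.2 and 34 CPM (ratio 1.06, 0.882 to 1.27) and Gzmb at 44.9 and 36.8 CPM (1.22, 1.03 to 1.44). Gzma and Prf1 therefore did not share the rim excess of Nkg7 and Cd8a, and Gzmb had a smaller one. The ratio of Nkg7 exceeded that of Gzma by a factor of 2.29 (1.9 to 2.76), that of Prf1 by 2.13 (1.69 to 2.69) and that of Gzmb by 1.85 (1.49 to 2.31). Over the control section the same factors were 1.01, 1.14 and 0.911, with intervals that all include 1. Fasl had 25 rim and 89 interior UMIs in the rIL7 section, a ratio of 1.55 (0.952 to 2.44), too few to place it. Gzmk had 8 and 30 there and 0 and 7 in the control section.

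Gzmc to Gzmf were about 2 times lower at the rim of the rIL7 section. Together they had 115 CPM in the rim and 227 in the interior, a ratio of 0.505 (0.457 to 0.556). The single ratios were 0.545 for Gzmc, 0.481 for Gzmd, 0.434 for Gzme and 0.52 for Gzmf, and Gzmg stood at 0.357. Against Gzmc to Gzmf, the rim-to-interior ratio of Nkg7 was 4.48 times greater (3.78 to 5.32) and that of Gzmb, which lies next to them on the chromosome, 2.42 times greater (1.99 to 2.93). Within the control section Gzmc to Gzmf stood at 104 and 137 CPM, a ratio of 0.759 (0.686 to 0.838). That control difference rests on few spots, since without the 10 richest spots its log2 value moved from -0.40 to -0.06, and with equal spot weights it was 0.04. The same removal brought the rIL7 value from -0.99 to -0.86.

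**Figure D2:**
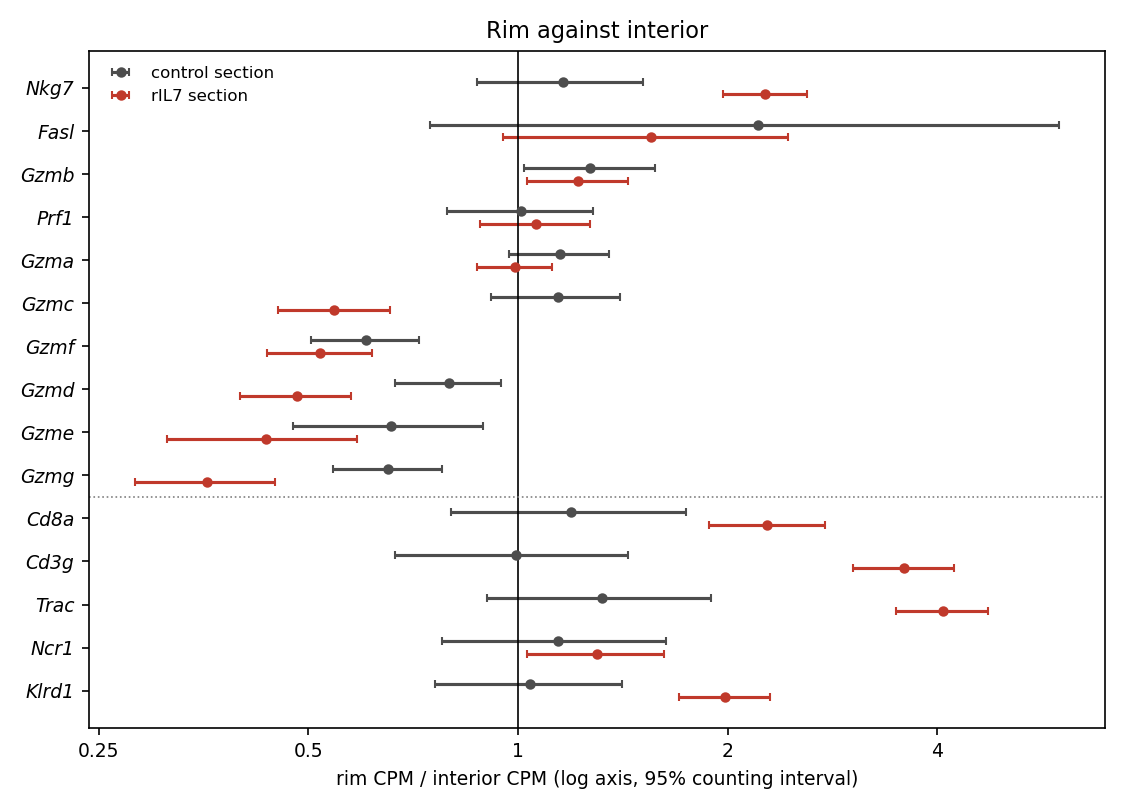
Ratio of the rim level to the interior level for members, Gzmg and, below the dotted line, markers of T cells (Cd8a, Cd3g, Trac) and NK cells (Ncr1, Klrd1), on a log axis. Points are section values and bars 95% counting intervals for the control (grey) and rIL7 (red) sections; in the rIL7 section Nkg7 sits at 2.26 and Cd8a at 2.28, whereas Gzmc to Gzmg sit between 0.357 and 0.545.

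The difference between the sections in Gzmc to Gzmf was larger in the interior than in the rim. Within the rim they were at 115 CPM in the rIL7 section and 104 in the control section, a ratio of 1.11 (0.968 to 1.26), whereas within the interior the ratio was 1.66 (1.58 to 1.74). The other 6 members had a ratio of 2.34 (2.09 to 2.62) within the rim and 2.09 (1.98 to 2.22) within the interior. With interior spots alone, 9 of the 10 members were again at least 1.5 times higher in the rIL7 section, against 4.53% of 13916 genes.

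Ring by ring, 3 profiles were seen in the rIL7 section. Nkg7 was at 78.3 CPM in the outermost ring (65.9 to 92.3), 50.2 in ring 3, 28.5 in rings 7 to 8 and 26.3 from ring 16 inwards. Cd8a went from 39.1 to 9.73 CPM over the same span. Gzma was at 66.1 CPM in the outermost ring (54.8 to 79.1), reached 103 in ring 3 (88.9 to 119) and was at 59 in rings 12 to 15 (52.2 to 66.5). Gzmc to Gzmf were at 106 CPM in the outermost ring and 122 in ring 2, then 217 in ring 3 and 259 in rings 5 to 6, and were still at 230 from ring 16 inwards. The step therefore lay between the second and the third ring, and counting 3 rings as rim brought the log2 rim-to-interior value from -0.99 to -0.63. Control rings of Nkg7 ranged from 10 (6.82 to 14.2) to 16.6 CPM (11.7 to 22.9), with overlapping intervals. Gzmc to Gzmf were highest in rings 5 to 6 of the control section too, at 200 CPM (184 to 215). They were at 108 in its outermost ring, 104 in ring 4 and 85.5 from ring 16 inwards. The richest control spot, with 186 UMIs of these genes, lies in ring 6.

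**Figure D3:**
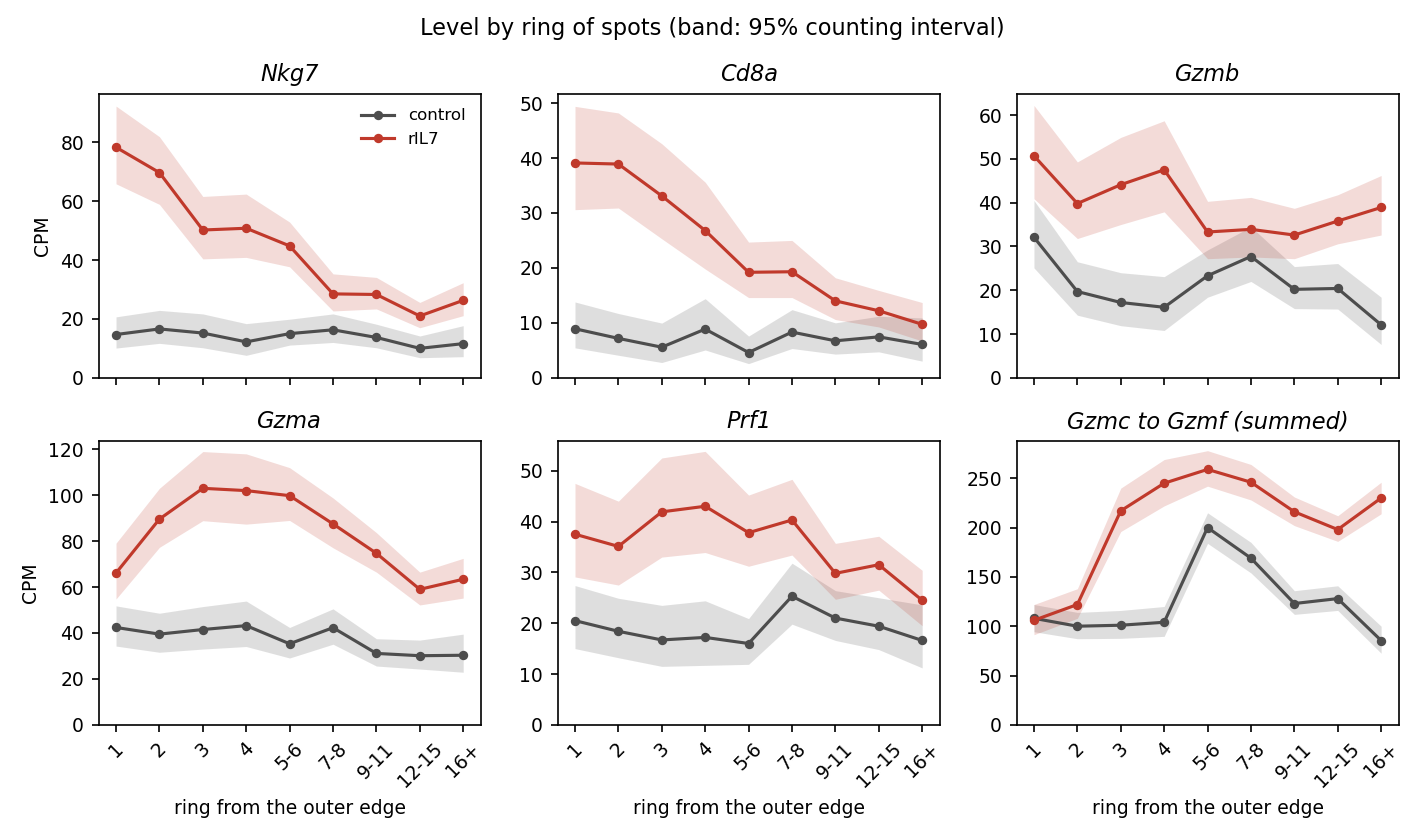
Level in UMIs per 1000000 UMIs (CPM) by ring of spots, counted from the outer edge of the tissue, for 4 members, Cd8a and the sum of Gzmc to Gzmf. Lines are the control (grey) and rIL7 (red) sections and bands 95% counting intervals; in the rIL7 section Nkg7 and Cd8a are highest in the outermost ring, Gzma in ring 3 and Gzmc to Gzmf in rings 5 to 6. In the control section Gzmc to Gzmf are highest in rings 5 to 6 as well.

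Spots were next divided by whether they held a Cd8a UMI. There were 150 such spots in the control section, 6.76% of all, and 429 in the rIL7 section, 22%. Most held a single Cd8a UMI (139 and 349 spots), and their median depth was higher than that of the other spots (10598 against 9534 and 13262 against 12821 UMIs). In the rIL7 section Cd8a-positive spots also had 1.86 times the level of the summed T cell markers Cd3d, Cd3e, Cd3g and Trac (1.7 to 2.04). For the control section that ratio was 1.09 (0.776 to 1.5), so a Cd8a UMI marked a T cell-rich spot poorly there.

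Gzmb, and less firmly Gzma and Nkg7, were higher in Cd8a-positive spots of the control section. Gzma was at 63 against 34.8 CPM (ratio 1.81, 1.46 to 2.21), Gzmb at 38.5 against 20.3 (1.89, 1.44 to 2.46) and Nkg7 at 21 against 13.5 (1.55, 1.07 to 2.2). These 3 of 9 members met the 1.5-fold rule, which 1.22% of 13179 genes met. With spots thinned to 5900 UMIs the log2 values were 0.54 for Gzma (-0.29 to 1.14 over the draws) and 0.51 for Nkg7 (-0.37 to 1.63). Gzmb was at 0.65 (0.18 to 1.22). Each range reaches to both sides of the 1.5-fold limit, so thinning does not settle these calls, and only the range of Gzmb stayed above 0. With Cd8b1 in place of Cd8a the values were 0.39 for Gzma, 0.26 for Nkg7 and 0.75 for Gzmb, and with at least 2 Cd8a UMIs Nkg7 was at 0.01. Prf1 did not share the difference, at 21 against 19.2 CPM (1.1, 0.756 to 1.54). The NK cell markers were at 46.1 against 33 CPM in the same spots (1.4, 1.09 to 1.76), and their part in these ratios was not tested.

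For the rIL7 section only Nkg7 met the rule, against 2.08% of 13357 genes, at 52.6 CPM in Cd8a-positive and 34.7 in Cd8a-negative spots (ratio 1.51, 1.32 to 1.73). Prf1 followed with 42.8 against 31.8 CPM (1.35, 1.16 to 1.56), Gzmb with 45.7 against 35.5 (1.29, 1.11 to 1.48) and Gzma with 91.9 against 75.8 (1.21, 1.1 to 1.34). For Nkg7 the ratio was 1.23 (1.03 to 1.46) within the interior alone and 1.68 (1.33 to 2.13) within the rim, where both Nkg7 and Cd8a were higher. Prf1 likewise had a ratio of 1.84 within the rim (1.31 to 2.59) and 1.24 within the interior (1.04 to 1.47).

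Gzmc to Gzmf differed less between these spots. Their summed level was 144 CPM in Cd8a-positive and 129 in Cd8a-negative control spots (1.11, 0.975 to 1.27), and 220 and 206 in the rIL7 section (1.07, 1 to 1.14). The control value joined opposite ones, since it was 1.27 (1.1 to 1.45) within the interior and 0.609 (0.397 to 0.898) within the rim, the latter on 27 UMIs in Cd8a-positive spots. For rIL7 it was 1.13 within each (1.06 to 1.21 and 0.926 to 1.37). Once every spot was thinned to 5900 UMIs, the log2 ratio of the whole group between Cd8a-positive and Cd8a-negative spots was 0.32 for control and 0.15 for rIL7. Over that draw and 20 more it ranged from 0.13 to 0.62 and from 0.07 to 0.33.

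With distance from the nearest Cd8a-positive spot, Nkg7 and Gzma were lower, whereas Gzmc to Gzmf of the rIL7 section changed little. Over the rIL7 section Nkg7 was at 52.6 CPM in the Cd8a-positive spots, 37.6 at 1 grid step, 27.9 at 2 steps and 30.1 at 3 or more, the last over only 81 spots. Gzma was at 91.9, 80.6, 64.8 and 63.3 CPM over the same steps. Gzmc to Gzmf were at 220, 208, 199 and 216 CPM. Over the control section Gzma was at 63 CPM in the Cd8a-positive spots, then 42.2, 31.6 and 30, and Gzmc to Gzmf were at 144, 130, 145 and 107.

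Cd8a differed more between the sections than most members did, so fewer member UMIs stood beside each Cd8a UMI in the rIL7 section. The group had 31.9 UMIs per Cd8a UMI for control and 19.8 for rIL7, a ratio of 0.621 (0.515 to 0.744). Nkg7 stood at 2.01 and 1.89 per Cd8a UMI (ratio 0.944, 0.755 to 1.18), but per UMI of Cd8b1, the other CD8 chain with 36 control UMIs, its ratio was 0.569 (0.379 to 0.835). Gzmb went with 3.09 and 1.84 UMIs per Cd8a UMI (0.597, 0.482 to 0.737), Prf1 with 2.75 and 1.67 (0.609, 0.49 to 0.754) and Gzma with 5.27 and 3.87 (0.735, 0.602 to 0.895). Gzmf was lowest, at 7.09 and 3.22 (0.454, 0.372 to 0.552). Fasl alone was higher with an interval above 1, at 0.124 and 0.216 (1.74, 1.03 to 3.05), on 20 control UMIs, and the ratio of Gzmk was 1.65 (0.712 to 4.48). Over all spots the Fasl call was lost per Cd8b1 UMI (1.05, 0.559 to 2.01) and per UMI of Cd3d, Cd3e and Cd3g (1.56, 0.947 to 2.69). Within the interior alone, away from the Cd8a-rich rIL7 rim, the ratio per Cd8a UMI was 0.723 (0.583 to 0.891) for the group, 0.88 (0.698 to 1.1) for Gzma and 1.07 (0.84 to 1.35) for Gzmc. Gzmb (0.709, 0.554 to 0.904), Prf1 (0.697, 0.543 to 0.891) and Gzmf (0.523, 0.417 to 0.653) stayed below 1 there. The interior interval of Fasl lay above 1 per Cd8a UMI (2.29, 1.22 to 4.63) and per UMI of Cd3d, Cd3e and Cd3g (2.4, 1.31 to 4.77). It included 1 per Cd8b1 UMI (1.89, 0.907 to 4.16). Per UMI of the NK cell markers Ncr1, Klrb1c, Klre1 and Klrd1, a reference added after the data were seen, the group stood at 9.81 and 6.22 (0.634, 0.57 to 0.703). Nkg7 stood at 0.964 (0.82 to 1.13) and Fasl at 1.77 (1.08 to 3.04) by that reference.

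UMIs of Gzmc to Gzmf were unevenly spread over spots. Within the control section 50% of their 2991 UMIs lay in 99 spots (4.46% of spots), and in the rIL7 section 50% of 5387 lay in 241 spots (12.4%). On fewer UMIs each, Prf1 reached 50% in 118 and 202 spots and Nkg7 in 118 and 226. Gzmb reached it in 148 and 206 spots and Gzma in 186 and 310. This share alone therefore does not set Gzmc to Gzmf apart in the rIL7 section. The 10 richest spots held 18.2% of their UMIs for control and 8.17% for rIL7, against 5.19% and 4.3% for Gzma and 8.67% and 4.6% for Nkg7. For Gzmb they held 8.84% and 5.03%, and for Prf1 10.8% and 4.98%. The variance of UMIs per spot was 13.1 times the mean for Gzmf in the control section and 3.51 times in the rIL7 section. It was 6.43 and 3.62 times for Gzmd, 4.39 and 2 times for Gzme and 1.99 and 2.4 times for Gzmc. For Gzma, Gzmb, Prf1 and Nkg7 it was 1.19 to 1.69 times the mean. Counting intervals for Gzmc to Gzmf are therefore narrower than the spread among spots would give.

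The richest spot was in the control section, 6 rings from the edge. It held 97 Gzmf, 53 Gzmd, 26 Gzme and 10 Gzmc UMIs, 6.22% of all UMIs of these 4 genes in the section, along with 87 Gzmg, 8 Gzmb, 7 Prf1 and 5 Nkg7 UMIs. It held no Gzma, Cd8a, Cd8b1, Cd3g or Ncr1 UMI and 1 Klrd1 UMI, at 24733 UMIs in all. A touching spot was the second richest, with 55 UMIs of the 4 genes and 29 of Gzmg. Within the rIL7 section the richest spot had 64 UMIs of the 4 genes, among them 30 Gzmf and 18 Gzmd, and 16 Gzma.

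**Figure D4:**
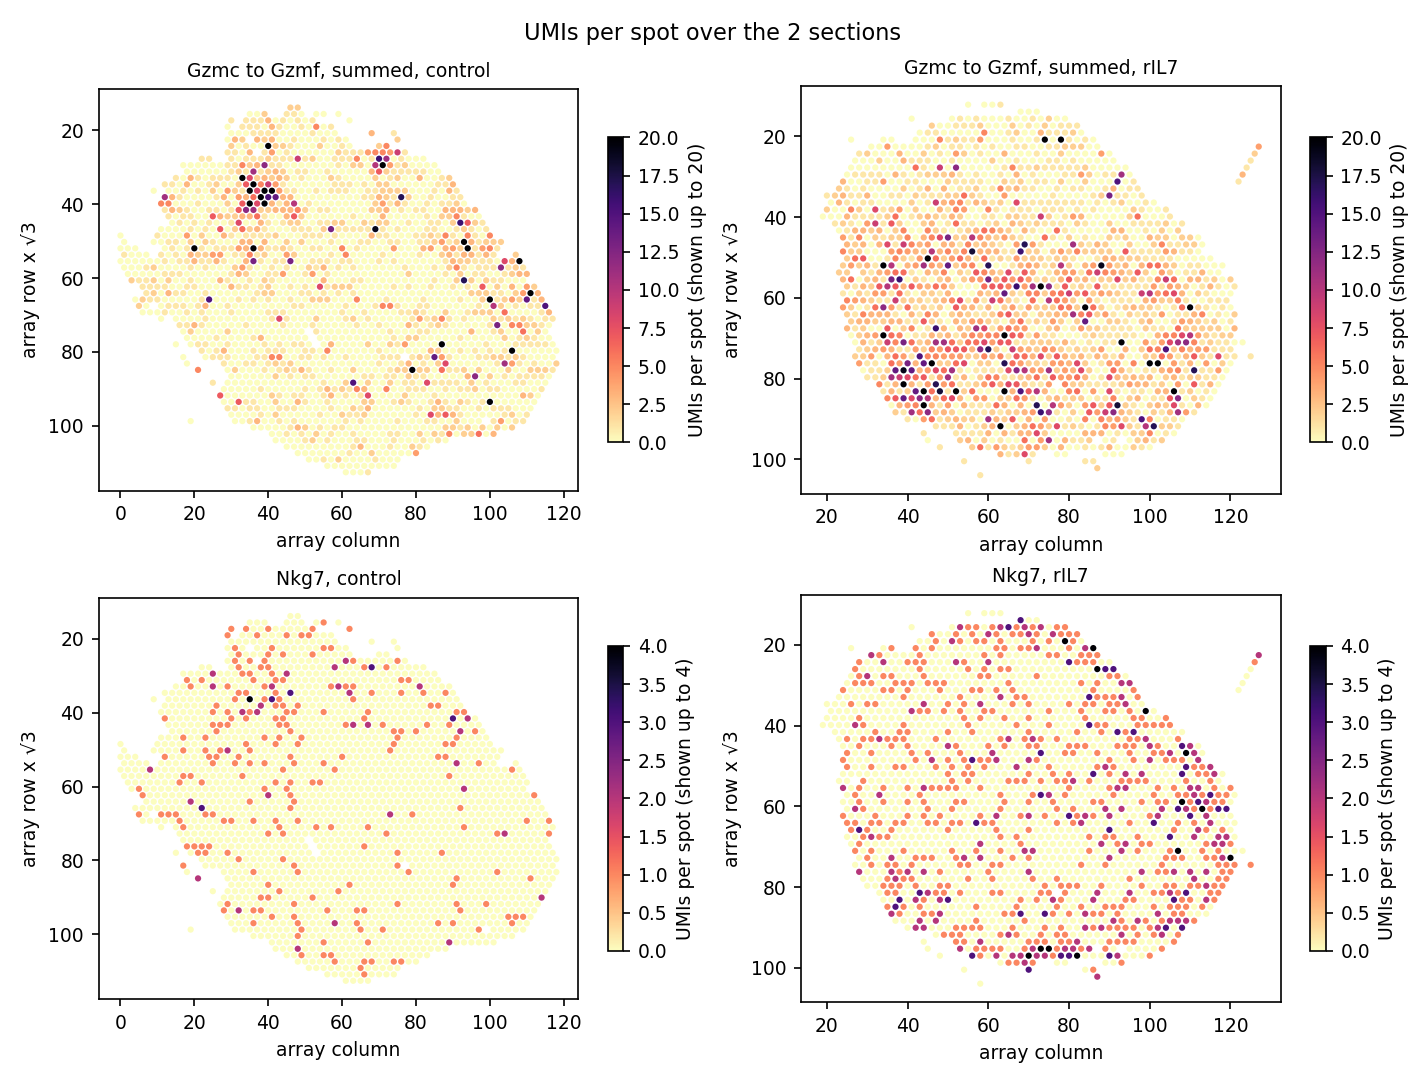
UMIs per spot of Gzmc to Gzmf (top, color up to 20) and of Nkg7 (bottom, color up to 4) over the control (left) and rIL7 (right) sections, each point 1 spot at its array column and row, the row scaled so that distances are true. Spots above the color limit are drawn as at it, the richest being a control spot with 186 Gzmc to Gzmf UMIs, and Nkg7 is densest along parts of the margin of the rIL7 section.

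Spots with at least 10 UMIs of Gzmc to Gzmf numbered 49 for control and 98 for rIL7, a limit set after the values were seen. The rim held 7 of the control and 5 of the rIL7 spots, where it held 18.1% and 16.9% of all spots. Of these spots 21 control and 55 rIL7 spots touched another of their kind. The limit falls in a run of values, with 3 control and 15 rIL7 spots at 9 UMIs and 3 and 13 at 10. Levels of Gzmc to Gzmf themselves in these spots follow from the choice. Gzmg may share reads with them. The other genes are given as a description.

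Of the genes compared, Prf1 had the largest ratio outside the family. It was at 124 CPM against 16.1 elsewhere for control (ratio 7.71, 6 to 9.8) and at 97.8 against 30.7 for rIL7 (3.18, 2.63 to 3.83). Gzmb had ratios of 3.76 (2.76 to 5.03) and 2.58 (2.12 to 3.11), and Gzma of 1.93 (1.41 to 2.59) and 2.02 (1.74 to 2.33). Nkg7 had 2.64 (1.67 to 4.01) and 1.41 (1.1 to 1.78). With limits of 5 and 20 UMIs the intervals of Prf1, Gzmb and Gzma stayed above 1 in both sections, but that of Nkg7 in the rIL7 section did not, at 1.02 (0.858 to 1.2) and 1.53 (0.887 to 2.46). By the 1.5-fold rule 4 of 5 other members with enough UMIs were higher in the control section, where 1.31% of 13176 genes were, and 3 of 6 in the rIL7 section, where 1.08% of 13354 genes were.

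Markers of T cells were not raised alike in these spots. Cd8a had a ratio of 1.27 (0.461 to 2.84) for control and 1.23 (0.849 to 1.74) for rIL7. Cd8b1 had 1.94 (0.226 to 7.56) and 0.836 (0.376 to 1.62). Trac stood at 1 (0.322 to 2.39) and 0.598 (0.38 to 0.897), and Cd3g at 2.34 (1.18 to 4.19) and 0.645 (0.401 to 0.986). Klrd1 stood at 2.08 (1.17 to 3.45) and 1.51 (1.17 to 1.92), and Ncr1 at 0.749 (0.202 to 1.95) and 1.48 (1.04 to 2.04). Klre1 stood at 1.57 (0.184 to 6.03) and 0.675 (0.268 to 1.42). The summed NK cell markers were at 1.36 (0.92 to 1.95) and 1.31 (1.11 to 1.55). The summed T cell markers were at 1.39 (0.852 to 2.15) for control and 0.714 (0.563 to 0.894) for rIL7. Their rIL7 interval stayed below 1 with limits of 5 UMIs (0.766, 0.672 to 0.871) and 20 UMIs (0.578, 0.307 to 0.991). Their control interval included 1 at each limit. Other marker values depended more on the limit. With a limit of 20 UMIs the summed NK cell markers of the rIL7 section were at 1.04 (0.673 to 1.54). At 20 UMIs the rIL7 values were 1.1 (0.545 to 1.97) for Klrd1, 0.875 (0.283 to 2.06) for Ncr1, 0.369 (0.076 to 1.08) for Trac and 0.58 (0.157 to 1.49) for Cd3g, and at 5 UMIs the control values were 1.39 (0.881 to 2.1) for Klrd1 and 1.59 (0.932 to 2.56) for Cd3g. Of the 49 control spots 26 had no UMI of any listed CD8 T cell, T cell or NK cell marker, and of the 98 rIL7 spots 11 had none. Among the other spots 57.1% and 19% had none, at a lower median depth (9604 against 11790 UMIs for control, 12872 against 14170 for rIL7), so these shares are not at like depth. The macrophage gene Cd68 and the tumor gene Baiap2l1 were near even in both sections, at 1.03 and 0.942 in the control section and 0.952 and 1.01 in the rIL7 section.

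**Figure D5:**
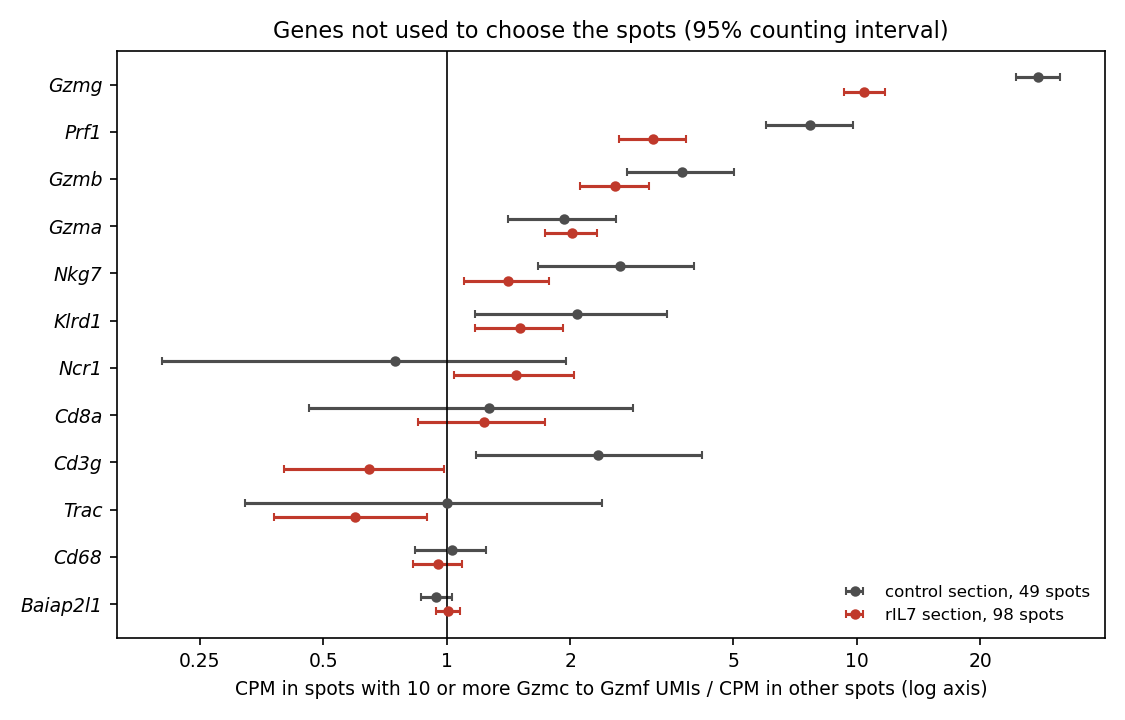
Level in spots with 10 or more UMIs of Gzmc to Gzmf over the level in all other spots, on a log axis, for genes not used to choose the spots. Points are section values and bars 95% counting intervals for the control section (grey, 49 spots) and the rIL7 section (red, 98 spots); Gzmg, Prf1, Gzmb and Gzma lie above 1 in both sections, and Cd68 and Baiap2l1 lie near 1. The interval of Cd8a includes 1 in both sections and is wide in the control section.

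Around these spots Gzmc to Gzmf were higher in near spots than in far ones, all of which held fewer than 10 UMIs of them by the choice made. For the control section they were at 155 CPM at 1 grid step, 93.5 at 2 steps, 74.9 at 3 and 64.4 at 4 or more. For the rIL7 section they were at 219, 170, 133 and 110. Prf1 was at 19.8, 14.8, 16.4 and 15.6 CPM in the control section over the same steps, with intervals that overlap. In the rIL7 section it was lower at each further step, at 34.8, 32.2, 29.6 and 27.9. Intervals overlap there as well, which does not exclude a difference, and no ratio between steps was computed. Gzma in the rIL7 section was at 90.5 CPM at 1 step (82.6 to 99) and 64.5 at 4 or more (59.3 to 70), with intervals apart.

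Spot by spot, the ranks of CPM of Gzmc to Gzmf were related among themselves, with Spearman's rho of 0.18 to 0.29 for control and 0.25 to 0.33 for rIL7. Prf1 had rho of 0.15 to 0.18 and 0.14 to 0.16 with them, and Nkg7 0.06 to 0.09 and 0.01 to 0.02. Cd8a had rho from -0.01 to 0.02 and from -0.03 to 0.01. Over the rIL7 section the largest rho of Nkg7 among the genes compared was 0.18, with Cd3g. Spots share a section and many hold no UMI, so these values are low throughout and serve only to rank the pairs.

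Of 32 other genes of the killing pathway 31 had enough UMIs, and 12 were higher in the rIL7 section by the 1.5-fold rule and 0 lower, with a median log2 ratio of 0.34. Among all 14313 genes with enough UMIs, 6.12% were higher and 4.24% lower by this rule. In granules, Srgn (serglycin) was at 71.8 and 142 CPM, a ratio of 1.98 (1.87 to 2.1), and the cathepsin W gene Ctsw at 9.28 and 25.4 CPM (2.73, 2.34 to 3.21). The cystatin F gene Cst7 had a ratio of 1.79 (1.5 to 2.16), but its quadrant ranges overlap between the sections (6.21 to 12.7 and 8.35 to 18.6 CPM). Ctsc, whose product cathepsin C removes the propeptide of granzymes and which myeloid cells also make, was at 356 and 294 CPM (0.826, 0.8 to 0.852). Of the 6 release genes only Rab27a, which tethers granules to the membrane, met the rule, at 1.78 (1.24 to 2.59) on 47 and 94 UMIs.

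All 4 serpin genes listed as inhibitors were higher in the rIL7 section. Serpinb9, which encodes the inhibitor of granzyme B, was at 13.4 and 23.3 CPM (1.73, 1.51 to 2), close to the ratio of Gzmb itself. Serpinb6b was at 2.31 and 7.89 CPM (3.42, 2.51 to 4.71), Serpinb9b at 1.18 and 3.73 (3.17, 2.05 to 5.06) and Serpina3g at 107 and 224 (2.1, 2 to 2.2). Within the rIL7 section Serpinb9 was rim-bound like Nkg7, at 41 against 19.7 CPM (2.08, 1.72 to 2.5). None of the 8 genes of death receptors and their signalling met the rule in either direction.

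Among the regulators, Tbx21 (T-bet) was at 1.39 and 5.67 CPM (4.07, 2.76 to 6.17) and Eomes at 1.35 and 4.9 (3.63, 2.43 to 5.56), while Prdm1 at 1.46 (1.19 to 1.79) and Runx3 at 1.05 (0.961 to 1.16) did not meet the rule. Both cytokine genes did. Ifng, the interferon gamma gene, was at 2.31 and 5.52 CPM (2.39, 1.73 to 3.34), and in the rIL7 section at 11.2 in the rim and 4.48 in the interior (2.5, 1.71 to 3.61). Xcl1, which attracts cross-presenting dendritic cells, was at 3.01 and 6.72 CPM (2.24, 1.68 to 3), and its rIL7 rim and interior stood at 14.3 and 5.22 CPM (2.73, 1.95 to 3.8). Its quadrant ranges overlap between the sections, at 1.64 to 3.84 and 3.54 to 9.37 CPM.

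Other cell types make some of these genes. Of 7 mast cell and basophil markers 3 were lower in the rIL7 section by the 1.5-fold rule and none higher, and their sum was at 71.5 CPM for control (quadrants 41.8 to 98.5) and 48.7 for rIL7 (30.3 to 86.8). All 5 NK cell markers with enough UMIs were higher, with a sum of 34 CPM (23.9 to 45.8) and 83.4 (54.6 to 104), a ratio of 2.45 (2.26 to 2.67). The 4 T cell markers were all higher, with a summed ratio of 3.44 (3.12 to 3.8). Higher too were 2 of 3 plasmacytoid dendritic cell markers (summed ratio 1.53, 1.25 to 1.87), both neutrophil markers (1.91, 1.83 to 2) and both plasma cell markers (13.5, 8.69 to 22.1, on 21 control UMIs). All 3 CD4 and regulatory T cell markers were higher (2.33, 1.91 to 2.86), and none of the 3 macrophage or 2 tumor markers met the rule in either direction. By the same rule 6.12% of 14313 genes were higher and 4.24% lower. Quadrant ranges overlap between the sections for the summed plasmacytoid dendritic cell, neutrophil, and CD4 and regulatory T cell markers. The share of the members' UMIs that came from each type was not tested.

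The genes outside the lists whose pattern was most like the sum of the members over tiles of the sections (38 and 33 tiles, 10760 genes ranked) were Uqcrh, the mast cell protease gene Mcpt2, 1110008P14Rik, 9430038I01Rik and Ngly1. Their mean rho over the 2 sections was 0.44 to 0.45, but the sections differed. Mcpt2 had a rho of 0.20 for control and 0.70 for rIL7, 9430038I01Rik 0.24 and 0.66, and Uqcrh 0.44 and 0.46. For Nkg7 alone the same measure, computed after the data were seen, gave 0.79 for H2-Q7 and 0.76 for H2-K1, a pair of major histocompatibility class I genes. Close behind were Tyrobp at 0.75, Ucp2 at 0.73 and Pld4 at 0.73. For the sum of Gzmc to Gzmf the highest mean rho was 0.46. Ranking 10760 genes over so few tiles yields some high values by itself, and how high was not tested.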

How the data were processed

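Visium libraries of 2 frozen tumor sections, cut at 10 µm, were analysed. The authors made the deposited counts with Space Ranger 1.1.0 on mm10, and these are unnormalized UMI counts. Spot barcodes, gene identifiers, the tissue flag and array positions were used as deposited, and image scale factors were not. The sections share 1702 barcodes because positions of the array carry fixed barcodes.

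Following the study's methods, tissue spots with under 10% mitochondrial UMIs and more than 200 genes were kept. This removed 2 control spots and 1 rIL7 spot. Counts were summed over spots and divided by their total. Intervals are exact Poisson for a level, Clopper-Pearson for a ratio of levels and conditional exact for a ratio of ratios or per Cd8a UMI, all at 95% and for counting error only. UMIs are molecules, but differences between mice are not covered. Rim and interior were counted inwards from the edge of the largest connected piece of tissue, so that 12 control and 21 rIL7 spots fell in neither. Genes needed 20 UMIs over the spots compared for the 1.5-fold rule. With 1 section per group no test was run.

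The genes named are the 10 members, pathway genes of fixed lists that met the 1.5-fold rule, together with Ifng, Serpinb9, Ctsc, Fas and Tbx21, defining markers, and the 5 genes most like the summed members over tiles of 8 array rows by 16 columns with at least 20 spots, among genes with at least 100 UMIs in each section. Gzmg, Gzmc to Gzmf as a sum, other regulators, and the spots rich in them were singled out after values were seen. Members and lists were chosen with earlier results of these data known. Interval and ring code was tested on simulated data. Alternatives included edgeR 4.0.16 (TMM) and DESeq2 1.42.0 (median of ratios) scaling in R 4.3.3. Other work used Python 3.11.15, numpy 2.4.6 and scipy 1.17.1. Positions come from RefSeq (GRCm38.p6), in which all 76 listed genes were matched. Protein sequences were not used here.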

Additional observations from a re-analysis of the deposited data

Results flagged for a closer look

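For 4 pairs of values the same contrast pointed in opposite directions in the 2 sections. With 1 section per group these differences were not tested. The log2 ratio of rim over interior for Gzmc was 0.18 for control and -0.87 for rIL7, and only the rIL7 interval leaves out 0. For Gzma it was 0.20 and -0.02, with both intervals including 0. The log2 ratio of Cd8a-positive over Cd8a-negative spots for Gzme was 0.47 and -0.19, and for Gzmf -0.04 and 0.18. Of the last 4 values only the Gzmf value of the rIL7 section has an interval that leaves out 0, and it changed sign with another Cd8a limit.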

How the results depend on the processing

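No paired analysis was possible because each group holds 1 section. In all, 442 values were recomputed for 79 results, and values below are log2 ratios. The count of 9 members at 1.5-fold or more in the rIL7 section held under each alternative run except totals that leave out mitochondrial, haemoglobin and ribosomal protein genes, where it was 8, since Gzmd came to just under the limit. The group ratio of 0.86 was 1.01 with each spot weighted equally, 0.81 without Gzma, 0.97 as the median over members and 0.97 without the 10 richest spots, all in the same direction. With TMM or median-of-ratios scaling it was 0.87. The rim value of the group changed direction. In the control section -0.13 became 0.14 with equal weights, 0.18 as the median and 0.09 without the 10 richest spots. In the rIL7 section -0.22 became 0.04 as the median, -0.14 without the 10 richest spots and -0.07 with 3 rings. The cause of these shifts and of those below was not tested. The alternatives for Gzmc to Gzmf and for the other 6 members were added after the data were seen. For Gzmc to Gzmf, rIL7 over control (0.68) was 0.85 without the 10 richest spots, 0.76 without the 1 richest, 0.57 with Gzmg added and 0.86 with equal weights. Their control rim value of -0.40 was -0.06 without the 10 richest spots and 0.04 with equal weights, and their rIL7 rim value of -0.99 was -0.63 with 3 rings. The other 6 members, rIL7 over control (1.08), were at 1.20 with equal weights. Among single genes, control rim values with equal weights turned to 0.17 for Gzmd (from -0.33) and 0.18 for Gzme (from -0.61). For Cd8a-positive over Cd8a-negative spots, the group value of 0.41 in the control section was 0.96 with at least 2 Cd8a UMIs and 0.57 with Cd8b1. The rIL7 value of 0.24 was 0.40 with at least 2 Cd8a UMIs, 0.12 with Cd8b1, 0.15 after thinning and 0.14 without the 10 richest spots. For Gzmf in the rIL7 section 0.18 became -0.02 with at least 2 Cd8a UMIs and -0.01 after thinning. Members per Cd8a UMI (-0.69) were at -1.42 per Cd8b1 UMI, a gene with 36 control UMIs. Fasl and Gzmk, with 20 and 7 control UMIs, are too sparse for their place within a section to be given.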
